A study of Mus musculus with 6 samples.

Results

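RNA of neurons, astrocytes and oligodendrocytes was followed in CD11b+ cells enriched from mouse brain, through 34 genes chosen by name. They are 15 genes of neurons, 10 of astrocytes and 9 of oligodendrocytes, and all 34 are among the 19225 genes listed. Cells were taken from 3 mice labelled *Cnr1*+/+ (strain C57BL6/J, genotype wt/wt) and 3 labelled *Cnr1*-/- (strain *Cnr1* tm1Zim, genotype d/d), all male, with a labelled age of 3 months and not exposed to stress. In the *Cnr1*-/- line a neomycin cassette disrupts the coding region of the cannabinoid receptor gene in every cell of the animal, so neurons and glia lack it too. All brains were perfused and, with the cerebellum taken out, dissociated mechanically, freed of myelin on Percoll and passed over CD11b beads. Each mouse gave 1 library, read from the 3′ ends of transcripts.

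CD11b is an integrin subunit of microglia and other myeloid cells, and neurons, astrocytes and oligodendrocytes do not carry it. Neurons signal through synapses, astrocytes take up glutamate and potassium around them, and oligodendrocytes wrap axons in myelin. Transcripts of these cells are commonly met in bead-enriched microglia. In RNA from bulk samples, fewer cells of a type and less RNA per cell cannot be told apart, nor can RNA of other cells be told apart from low expression in the CD11b+ cells themselves. Some members are also not exclusive to their class. *Calm2* encodes calmodulin, a calcium sensor of all cells, and *Glul* encodes glutamine synthetase, which other brain cells can make as well.

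The level of a gene is given in CPM (written cpm), read values that the authors scaled to the size of each library with TMM. The step between low values places the libraries at a TMM-scaled size of 7708793 to 10723826 reads. The listed genes hold 50.1% to 59.1% of that size. With this step, 3 reads, the one-sided 95% limit that a count of 0 allows, correspond to 0.280 to 0.389 cpm. The intervals given for single genes are two-sided exact 95% Poisson intervals. Limits and intervals of this kind cover counting error only. A 3′-end read counts a transcript once whatever its length, and levels of different genes are compared on that scale. The sum of 14 microglia identity genes lay between 16229 and 18731 cpm in the 6 libraries, led by *Cx3cr1* (4743 to 5648 cpm) and *Csf1r* (2749.9 to 3441 cpm). *Cnr1* itself was listed at 0 in every library labelled *Cnr1*+/+ and at 1.41, 1.21 and 1.79 cpm in those labelled *Cnr1*-/-, or 13 to 15 reads each, and whether these reads lie outside the disrupted part is not given in the sources used here. This goes against the labels, so groups are named by the labels of their libraries. Replicate 2 of the libraries labelled *Cnr1*-/- stood apart in blood genes. Its neutrophil genes summed to 4099 cpm against 268 to 529.6 cpm elsewhere, and its erythrocyte genes to 2346 cpm against 142 to 243 cpm.

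Promoter sequences were at hand for 23 of the 34 members. An abundant member of each class is shown, as an example of the genes whose RNA was followed, by the 250 bases before its start in RefSeq (GRCm38.p6). *Nrgn* lies on the reverse strand (chr9:37552746-37552995), *Glul* (chr1:153899679-153899928) and *Mobp* (chr9:120149492-120149741) on the forward strand, and each is written 5′ to 3′ along its gene. Capitals mark the TATA box letters TATAAA (in 12.4% of 32851 promoters of the same length), the CAAT box letters CCAAT (33.8%) and the GC box letters GGGCGG (32.7%) on either strand, with no overlap between them, and no match says only that these letters are not in the window.
Nrgn: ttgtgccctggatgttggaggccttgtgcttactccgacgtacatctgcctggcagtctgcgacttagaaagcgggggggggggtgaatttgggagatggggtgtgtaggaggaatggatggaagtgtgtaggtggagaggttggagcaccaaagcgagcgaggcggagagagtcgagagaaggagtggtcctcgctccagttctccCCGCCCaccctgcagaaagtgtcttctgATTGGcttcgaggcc
Glul: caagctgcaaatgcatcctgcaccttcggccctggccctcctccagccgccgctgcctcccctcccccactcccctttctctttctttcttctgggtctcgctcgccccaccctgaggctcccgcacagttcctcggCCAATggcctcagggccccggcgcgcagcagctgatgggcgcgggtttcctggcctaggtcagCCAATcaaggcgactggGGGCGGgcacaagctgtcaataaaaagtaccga
Mobp: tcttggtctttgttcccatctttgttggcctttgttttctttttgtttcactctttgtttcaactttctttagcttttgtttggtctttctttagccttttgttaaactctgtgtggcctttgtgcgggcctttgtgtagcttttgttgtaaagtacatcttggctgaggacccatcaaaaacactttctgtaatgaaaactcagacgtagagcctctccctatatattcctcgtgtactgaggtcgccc
The *Nrgn* window holds 11 CpG and the *Glul* window 15, against a median of 6 over all promoters. The *Mobp* window holds 4 CpG and none of the 3 motifs.

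Every member was above 0 in every library, and levels ran from 0.0998 cpm (*Mog*) to 681 cpm (*Glul*). Of the 34 members, 18 had a mean of at least 10 cpm over all 6 libraries, the minimum for the test, and 16 did not. Those tested were 5 neuron, 7 astrocyte and 6 oligodendrocyte genes. The members together summed to between 1917 and 2675 cpm, or 0.353% to 0.467% of the listed total of a library, and to between 10.2 and 15.5 cpm for every 100 cpm of microglia identity genes.

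**Figure D1:**
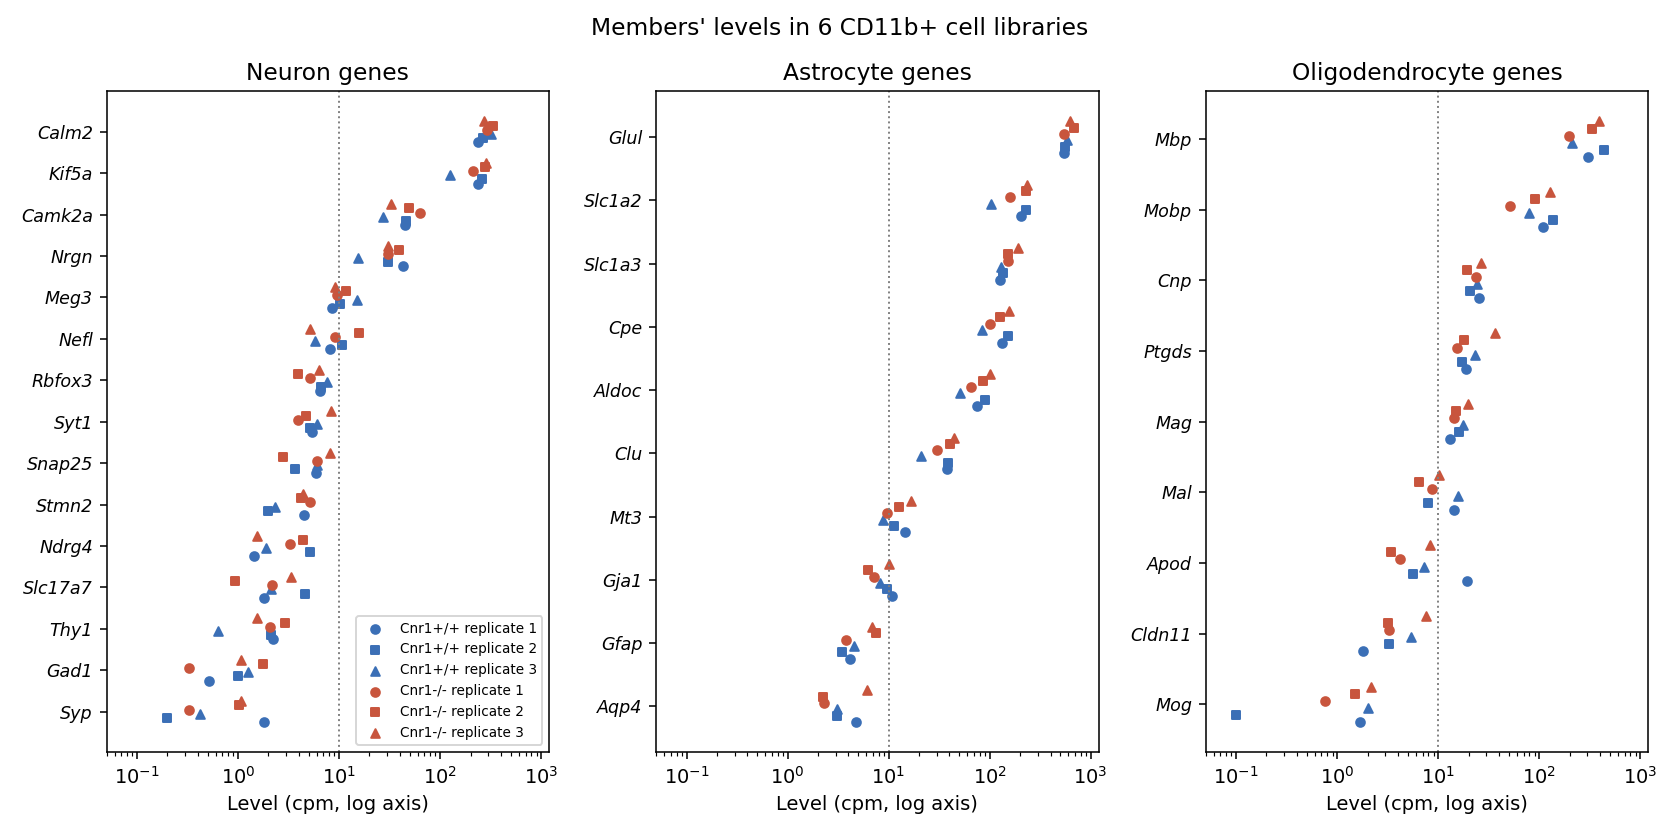
Level of each of the 34 genes in each library on a log axis in cpm, by class and in order of mean level, with blue symbols for libraries labelled *Cnr1*+/+ and red for those labelled *Cnr1*-/-, 1 shape per replicate number. The dotted line marks 10 cpm, the minimum mean for testing, and the 2 most abundant genes of each class lie far to the right of synaptic genes such as *Snap25* and *Syp*.

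Among neuron genes, RNA was concentrated in very few transcripts. *Calm2* and *Kif5a*, which encodes a kinesin heavy chain of axonal transport, made up 77.9% to 83.1% of the neuron sum, and with *Camk2a* and *Nrgn* 90.8% to 92.8%. *Calm2* was at 237, 263 and 322 cpm in libraries labelled *Cnr1*+/+ and at 293, 330.4 and 272 cpm in those labelled *Cnr1*-/-. These values lie within 1.40-fold of each other and the groups overlap. *Kif5a* (mm10, chromosome 10, 127225696 to 127263349) was at 237, 259.6 and 124 cpm in libraries labelled *Cnr1*+/+ and at 212, 278 and 282 cpm in those labelled *Cnr1*-/-. Its low value stood in replicate 3 labelled *Cnr1*+/+, and the remaining 5 libraries lay between 212 and 282 cpm. *Camk2a*, a kinase subunit of the postsynaptic side whose mRNA is known to travel into dendrites, was at 44.5, 45.9 and 27.3 cpm against 63.4, 48.7 and 32.7 cpm. *Nrgn*, encoding the calmodulin-binding protein neurogranin, was at 42.8, 30.5 and 15.4 cpm against 30.2, 39.3 and 30.2 cpm. Both were again lowest in replicate 3 labelled *Cnr1*+/+. *Meg3*, a long noncoding RNA abundant in neurons, did not follow them, with its highest value, 15.2 cpm, in that library and 8.60 to 11.7 cpm in the others.

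Apart from *Camk2a*, the markers that define neurons were present at 3 to 72 reads per library. *Snap25*, a subunit of the vesicle fusion complex, was at 5.97, 3.69 and 5.99 cpm in libraries labelled *Cnr1*+/+ and at 6.06, 2.80 and 8.11 cpm in those labelled *Cnr1*-/-, or 30 to 68 reads. *Syt1*, the calcium sensor of vesicle release, was at 5.45, 5.19 and 6.10 cpm against 3.90, 4.76 and 8.35 cpm. In both genes the groups overlap, and replicate 3 labelled *Cnr1*+/+, low for *Kif5a*, was not low. *Slc17a7*, the vesicular glutamate transporter of excitatory neurons, was at 1.82, 4.59 and 2.10 cpm against 2.17, 0.933 and 3.34 cpm. *Gad1*, which makes GABA in inhibitory neurons, was at 0.519, 0.998 and 1.26 cpm against 0.325, 1.77 and 1.07 cpm, or 3 to 19 reads. Both are present at levels where counting error is wide. For the 3 reads of *Gad1* the exact 95% Poisson interval is 0.0670 to 0.949 cpm. *Rbfox3*, a splicing factor of neuronal nuclei, was at 6.49, 6.68 and 7.57 cpm in libraries labelled *Cnr1*+/+ and at 5.20, 3.92 and 6.32 cpm in those labelled *Cnr1*-/-. It was the only neuron member whose groups did not overlap (6.91 ± 0.578 against 5.14 ± 1.20 cpm, SD, n = 3), with a two-sided exact permutation p of 0.1, the smallest that 3 libraries against 3 allow. Being under the minimum mean, it was not in the fit. Of the 6929 genes with a mean of 1 to 10 cpm, likewise outside the fit, 4.68% were lower in libraries labelled *Cnr1*-/- without overlap. Of the other neuron members, *Nefl*, a neurofilament subunit, ranged from 5.13 to 15.7 cpm, *Stmn2*, a growth-associated tubulin regulator, from 2.00 to 5.20 cpm, *Ndrg4* from 1.43 to 5.19 cpm, *Thy1*, a surface glycoprotein, from 0.631 to 2.89 cpm and *Syp*, the vesicle protein synaptophysin, from 0.200 to 1.82 cpm. All 5 overlapped between the labels.

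Astrocyte genes formed the most abundant class, and more of them were well measured. *Glul* and *Slc1a2* made up 61.7% to 68.6% of the astrocyte sum. *Glul* was at 549.5, 552 and 579 cpm in libraries labelled *Cnr1*+/+ and at 543, 681 and 618 cpm in those labelled *Cnr1*-/-. It was the steadiest of the abundant members, within 1.25-fold over the 6 libraries. *Slc1a2* (chromosome 2, 102658659 to 102790785), the main glutamate transporter of forebrain astrocytes, was at 205, 229.7 and 102 cpm against 158, 227 and 235 cpm. *Slc1a3* (chromosome 15, 8634124 to 8710765), another astrocyte glutamate transporter, was at 127, 134 and 130.0 cpm against 150.5, 151 and 191 cpm. A transcript overlapping it on the same strand, *Gm37310*, was at a mean of 0.924 cpm. The 2 transporters thus differed in pattern. *Slc1a2* was low in replicate 3 labelled *Cnr1*+/+ and *Slc1a3* was not, and the ratio of *Slc1a2* to *Slc1a3* was 0.782 there and 1.05 to 1.71 in the other libraries.

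Further tested astrocyte members encode secreted or metabolic proteins. *Cpe*, a carboxypeptidase that trims peptide hormones, was at 132, 153 and 84.6 cpm in libraries labelled *Cnr1*+/+ and at 101, 126 and 156 cpm in those labelled *Cnr1*-/-. *Aldoc*, the brain form of the glycolytic enzyme aldolase, was at 75.5, 90.9 and 50.9 cpm against 65.7, 86.1 and 99.7 cpm. *Clu*, the secreted chaperone clusterin, was at 38.1, 39.0 and 21.0 cpm against 30.4, 40.2 and 44.4 cpm. All 3 were lowest in replicate 3 labelled *Cnr1*+/+ and highest in replicate 3 labelled *Cnr1*-/-, as was *Mt3*, a zinc-binding metallothionein, over a range of 8.73 to 16.6 cpm. The structural markers were lower. *Gja1*, the gap junction protein connexin 43, was at 10.8, 9.68 and 8.20 cpm against 7.15, 6.25 and 10.1 cpm. *Gfap*, the astrocyte intermediate filament, was at 4.15, 3.49 and 4.52 cpm against 3.79, 7.55 and 6.80 cpm. *Aqp4*, the water channel of astrocyte endfeet, was at 4.80, 3.09 and 3.05 cpm against 2.27, 2.24 and 6.08 cpm. The groups of all 3 overlapped and none reached the minimum mean. *Slc1a2* stood 33.3 to 101 times above *Aqp4* in the same library.

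Oligodendrocyte genes varied most as a sum, over 2.03-fold. *Mbp* and *Mobp*, which encode proteins of compact myelin, made up 75.4% to 89.1% of it. *Mbp*, whose mRNA is known to be carried out to the myelin sheath, was at 307, 439 and 213 cpm in libraries labelled *Cnr1*+/+ and at 197, 336 and 387 cpm in those labelled *Cnr1*-/-. *Mobp* was at 109.7, 137 and 78.8 cpm against 51.5, 90.8 and 127 cpm. The 2 genes put the libraries in nearly the same order, with replicate 1 labelled *Cnr1*-/- and replicate 3 labelled *Cnr1*+/+ lowest and replicate 2 labelled *Cnr1*+/+ highest. *Cnp*, a myelin-associated phosphodiesterase of noncompact myelin, was at 25.2, 20.5 and 24.3 cpm against 23.8, 19.3 and 26.4 cpm. It overlaps *Dnajc7* (129.6 cpm) on the opposite strand, and whether reads were assigned by strand is not given in the sources used here. *Mag*, an adhesion protein between myelin and axon, was at 13, 16.2 and 17.6 cpm against 14.5, 15.1 and 19.8 cpm. *Cnp* and *Mag* thus kept within 1.37- and 1.53-fold. *Mog*, a protein of the outermost myelin layer, was at 1.69, 0.0998 and 2.00 cpm against 0.758, 1.49 and 2.15 cpm. Its lowest value is a single read (exact 95% Poisson interval 0.00253 to 0.556 cpm) in replicate 2 labelled *Cnr1*+/+, the library with the most *Mbp*. The ratio of *Mbp* to *Mog* was 107 to 259.6 in the other 5 libraries and 4404 in that library, where it rests on the single *Mog* read. Of the other oligodendrocyte members, *Ptgds*, a prostaglandin D synthase also made by meninges and choroid plexus, ranged from 15.3 to 36.4 cpm, *Mal*, a myelin membrane proteolipid, from 6.43 to 15.6 cpm, *Apod*, a lipid-binding apolipoprotein, from 3.45 to 19.5 cpm and *Cldn11*, the tight-junction claudin of myelin, from 1.82 to 7.63 cpm.

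**Figure D2:**
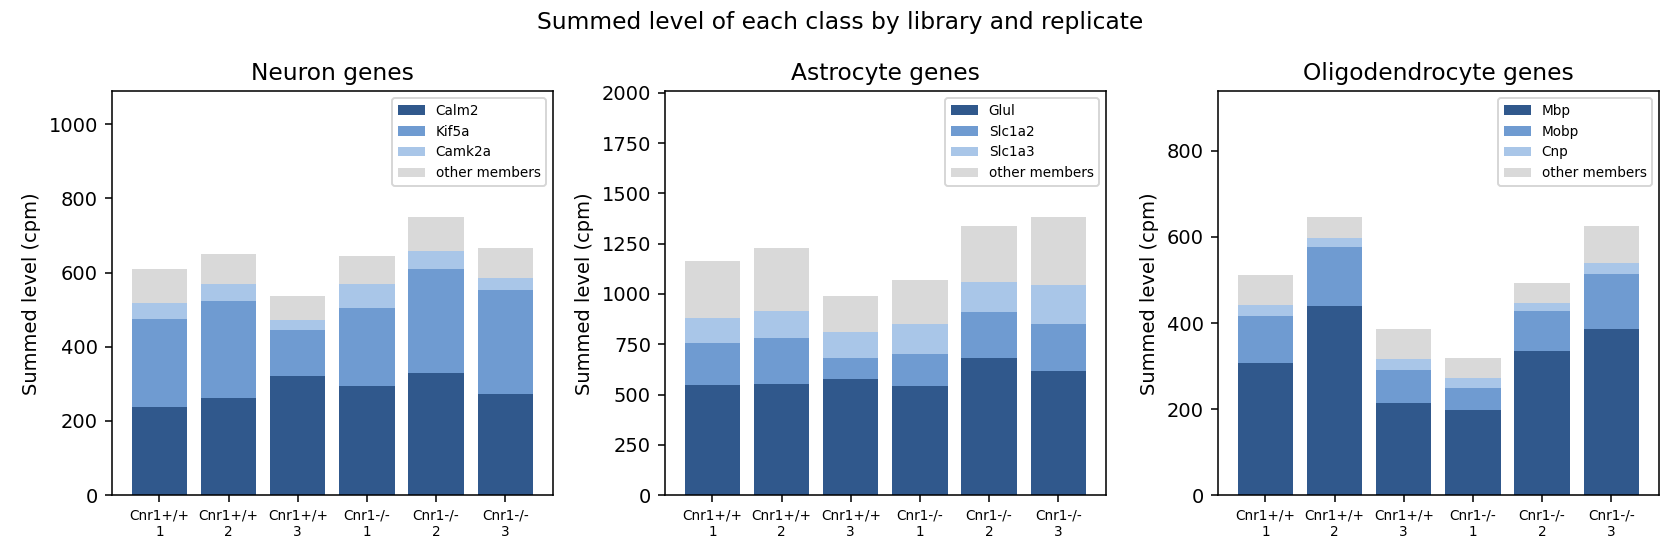
Summed level of the members of each class in each library (cpm, bars from 0), with the 3 most abundant members in blue shades and the other members in grey. Oligodendrocyte sums run from 319 to 647 cpm and overlap between the labels, as do the other classes.

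By label, the neuron sum was 599 ± 56.9 cpm (SD, n = 3) in libraries labelled *Cnr1*+/+ and 688 ± 55.0 cpm in those labelled *Cnr1*-/-. The astrocyte sum was 1126 ± 121 against 1265 ± 169 cpm and the oligodendrocyte sum 515 ± 129.8 against 479 ± 153 cpm. The log2 ratios of the means were 0.20, 0.17 and -0.11. All 3 classes overlapped between the labels. Relative to the summed microglia genes they were 0.12, 0.08 and -0.20, and without mitochondrially encoded genes in the totals 0.09, 0.06 and -0.22. With 1 library left out, the neuron ratio lay between 0.13 (without replicate 3 labelled *Cnr1*+/+ or replicate 2 labelled *Cnr1*-/-) and 0.26 (without replicate 2 labelled *Cnr1*+/+). The astrocyte ratio lay between 0.08 (without replicate 3 labelled *Cnr1*+/+) and 0.27 (without replicate 1 labelled *Cnr1*-/-), and was 0.10 without replicate 3 labelled *Cnr1*-/-. The oligodendrocyte ratio was -0.27 without replicate 3 labelled *Cnr1*+/+ and -0.34 without replicate 3 labelled *Cnr1*-/-. It changed sign without replicate 2 labelled *Cnr1*+/+ (0.09) or without replicate 1 labelled *Cnr1*-/- (0.12).

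Whether the genotype label went with these transcripts was asked gene by gene with limma on log2 (cpm + 0.1), over the 6659 genes that reached the minimum mean of 10 cpm. Of the 18 tested members, 2 (11.1%) had a nominal p under 0.05, *Kif5a* and *Slc1a3*, both higher in libraries labelled *Cnr1*-/-. Over all genes tested, 6.02% had such a p, 5.09% higher and 0.931% lower. No member reached an adjusted p under 0.1 together with a change of more than 1.5-fold, which 0.0901% of all genes did. *Slc1a3* differed by 0.32 on the log2 scale (SE 0.128, adjusted p = 0.792), with 131 ± 3.54 against 164 ± 23.2 cpm (SD, n = 3). It was the only tested member whose groups did not overlap, with an exact permutation p of 0.1. Over all genes tested, 8.85% were higher and 2.13% lower in libraries labelled *Cnr1*-/- without overlap. Without replicate 3 labelled *Cnr1*-/- the difference of *Slc1a3* was 0.21 and no longer had a nominal p under 0.05. *Kif5a* differed by 0.37 (SE 0.180, adjusted p = 0.825), with 207 ± 72.6 against 257 ± 39.3 cpm and overlapping groups, and an exact permutation test gave p = 0.5. Its nominal p was not under 0.05 without replicate 3 labelled *Cnr1*+/+ (difference 0.04), without the blood-rich replicate 2 labelled *Cnr1*-/- (0.31) or without replicate 3 labelled *Cnr1*-/- (0.30). Neither call held under every scaling. *Kif5a* lost it after centring each library on its median (0.30), and both lost it after quantile normalisation (0.27 and 0.22). Both also lost it after rescaling to the listed total without mitochondrially encoded genes (0.27 and 0.22). Over all alternatives the adjusted p by limma lay between 0.497 and 0.999 for *Slc1a3* and between 0.715 and 0.999 for *Kif5a*. The excess of higher calls over all genes went with the scaling too, at 84.5% of calls as deposited and 52.5% after centring. It was 45.3% after quantile normalisation and 40.1% after rescaling to the listed total without mitochondrially encoded genes.

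The remaining 16 tested members had adjusted p from 0.839 to 0.995 by limma, with standard errors of 0.117 to 0.307 on the log2 scale. Neuron members had a median log2 fold change of 0.28, with 4 of 5 above 0, and astrocyte members of 0.23, with 7 of 7 above 0. Oligodendrocyte members had a median of -0.04, with 2 of 6 above 0. The median over all genes tested was 0.08, with 68.4% above 0. The astrocyte count was 6 of 7 after centring and after rescaling to the listed total without mitochondrially encoded genes. It was 2 of 7 without replicate 3 labelled *Cnr1*+/+ and 5 of 7 without replicate 3 labelled *Cnr1*-/-. The oligodendrocyte count was 1 of 6 after rescaling to the listed total without mitochondrially encoded genes. It was 0 of 6 without replicate 3 labelled *Cnr1*-/-, 4 of 6 without replicate 1 labelled *Cnr1*-/-, 3 of 6 without replicate 2 of either label, and 3 of the 5 still tested without replicate 3 labelled *Cnr1*+/+. *Mal* was at 12.7 ± 4.17 against 8.45 ± 1.92 cpm (log2 fold change -0.54, SE 0.307, adjusted p = 0.839 by limma). *Mobp* was at 108 ± 29.0 against 89.7 ± 37.6 cpm (-0.33, SE 0.214, adjusted p = 0.880 by limma), and without replicate 1 labelled *Cnr1*-/- its difference was 0.02. It was -0.54 without replicate 3 labelled *Cnr1*+/+ and -0.63 without replicate 3 labelled *Cnr1*-/-, each with a nominal p under 0.05 and an adjusted p (0.478 and 0.523 by limma) above the threshold.

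**Figure D3:**
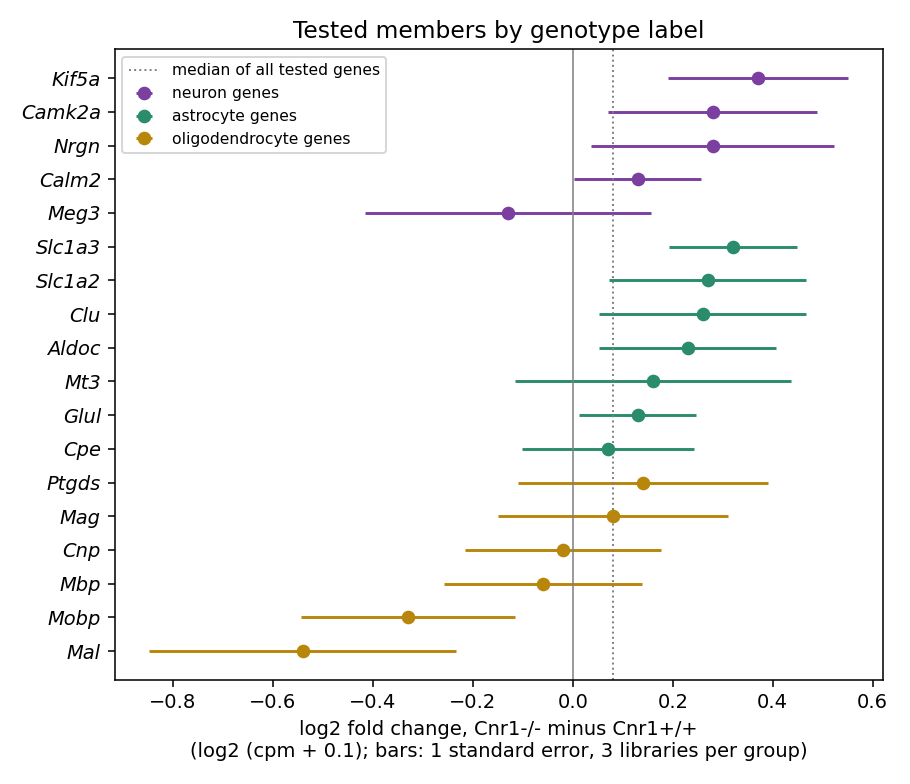
Log2 fold change (libraries labelled *Cnr1*-/- minus those labelled *Cnr1*+/+) of the 18 tested members from limma on log2 (cpm + 0.1), with bars of 1 standard error and 3 libraries per group. The dotted line is the median of all genes tested (0.08), and *Kif5a* (0.37) and *Slc1a3* (0.32) are the 2 members with a nominal p under 0.05.

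Several members varied widely over the 6 libraries. The highest value of *Slc1a2* was 2.31 times its lowest, of *Kif5a* 2.27 times, of *Mbp* 2.23 times and of *Cpe* 1.84 times. Among the 698 genes above a mean of 100 cpm the median ratio of highest to lowest was 1.31, and 1.15%, 1.43%, 2.01% and 3.87% of them had a larger one than these genes. *Nrgn* (2.79), *Mobp* (2.65), *Camk2a* (2.32), *Clu* (2.11) and *Aldoc* (1.96) were widely spread too among the 2181 genes of 30 to 100 cpm, whose median was 1.42 and of which 0.550% to 3.12% had a larger ratio. *Glul* and *Calm2* lay near the typical value, with 68.5% and 28.5% of genes of their level more spread, as did *Cnp* and *Mag*, with 87.0% and 65.3%. *Glul*, the most abundant member, was the least spread of the 18.

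The neuron gene *Kif5a* and the astrocyte genes *Slc1a2*, *Clu*, *Aldoc* and *Cpe* varied together. Replicate 3 labelled *Cnr1*+/+ was the lowest library for 8 of 18 tested members (44.4%) against 10.9% of all genes tested, and replicate 3 labelled *Cnr1*-/- the highest for 10 of 18 (55.6%) against 18.4%. For astrocyte members these counts were 5 of 7 and 6 of 7, for neuron members 3 of 5 and 1 of 5, and for oligodendrocyte members 0 of 6 and 3 of 6. Replicate 3 labelled *Cnr1*+/+ was among the 2 highest libraries for 3 of the 6 oligodendrocyte members. Among the 14 microglia identity genes that library was the highest for 8 (57.1%, against 23.2% of all genes tested) and the lowest for 0. Over all 34 members, those under the minimum mean included, it was the lowest for 9 (26.5%) and replicate 3 labelled *Cnr1*-/- the highest for 15 (44.1%). The libraries that were lowest for *Mbp* and *Mobp*, replicate 1 labelled *Cnr1*-/- and replicate 3 labelled *Cnr1*+/+, carry different labels. Likeness of 2 genes was measured as the SD over the 6 libraries of their log2 ratio, which is 0 for genes in a constant ratio. For the neuron gene *Kif5a* and the astrocyte gene *Slc1a2* it was 0.0864, and their ratio stayed between 1.13 and 1.35. Over all 6658 other genes tested, *Kif5a* was the gene most like *Slc1a2* and *Clu* the next (0.0993), where the median gene had 0.535. For *Kif5a*, *Slc1a2* came first and *Clu* second (0.0935, median gene 0.506). *Aldoc* (0.157) and *Cpe* (0.186) were farther from *Slc1a2* but near each other (0.0947). *Mbp* and *Mobp* had 0.203 with each other. Against *Kif5a*, *Slc1a2*, *Clu*, *Aldoc* and *Cpe*, other members with a wide spread had a range of values. *Mbp* had 0.192 with *Cpe* and 0.226 with *Aldoc*, close to the 0.211 of *Kif5a* with *Cpe*, and 0.271 with *Slc1a2*, 0.278 with *Clu* and 0.331 with *Kif5a*. *Nrgn* had 0.265 (with *Kif5a*) to 0.386 (with *Cpe*), *Mobp* 0.317 (with *Cpe*) to 0.498 (with *Kif5a*) and *Camk2a* 0.449 (with *Kif5a*) to 0.517 (with *Cpe*). *Slc1a2* had 0.430 with *Slc1a3*, 0.452 with *Glul* and 0.580 with *Calm2*, and *Kif5a* had 0.542 with *Calm2*. All these values share 6 libraries and their depth, and they are given as a description.

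**Figure D4:**
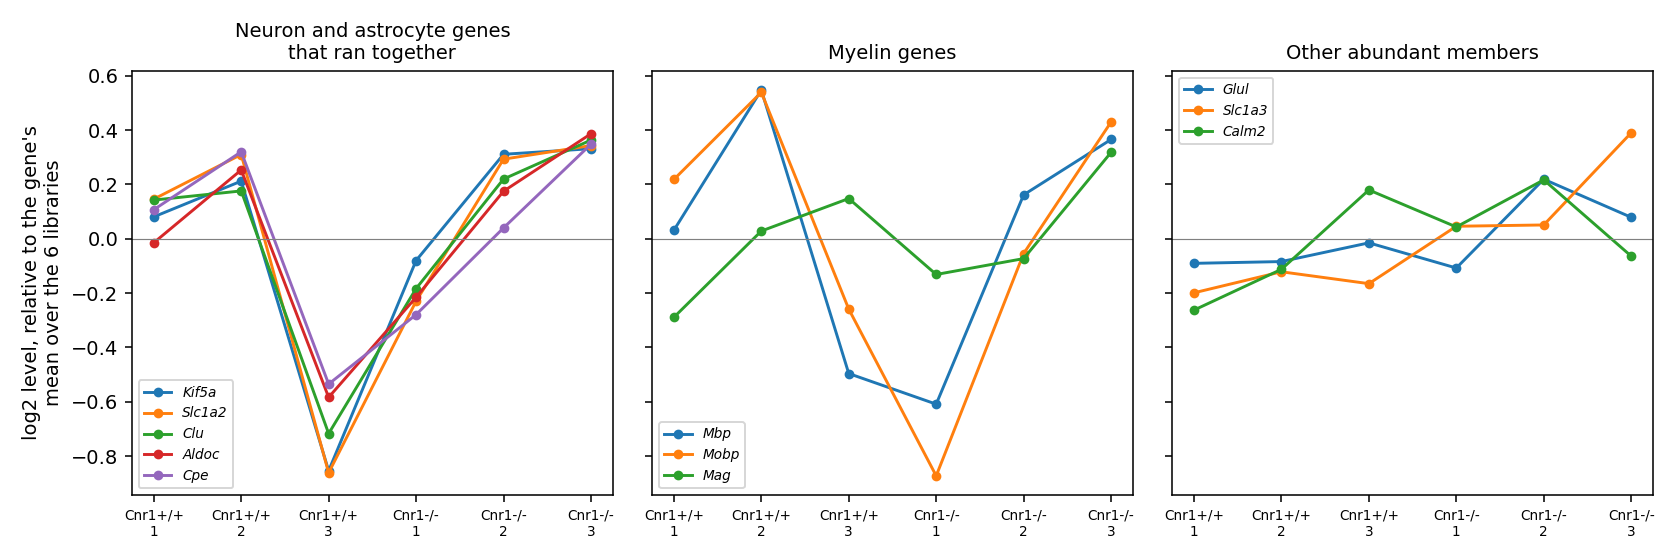
Log2 level in each library relative to the mean of the gene over the 6 libraries, for neuron and astrocyte genes (left), myelin genes (middle), and other abundant members (right); lines only join the values of a gene. *Kif5a*, *Slc1a2*, *Clu*, *Aldoc* and *Cpe* dip in replicate 3 labelled *Cnr1*+/+, where *Mag* and *Calm2* do not. *Mbp* and *Mobp* were also low there, above only replicate 1 labelled *Cnr1*-/-.

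Further genes of the same cell types showed how far this extended. Of 16 other astrocyte genes, 11 were tested and 0 had a nominal p under 0.05 (limma, median log2 fold change 0.09). *Sparcl1*, a secreted matrix protein, was at 273, 256 and 149 cpm in libraries labelled *Cnr1*+/+ and at 172, 246 and 319 cpm in those labelled *Cnr1*-/-. Replicate 3 labelled *Cnr1*+/+ was the lowest for 6 of these 11 genes and replicate 3 labelled *Cnr1*-/- the highest for 9, the libraries that stood out for the astrocyte members. Of 22 other neuron genes, 4 were tested and 0 had such a p. The most abundant, *Gria2*, a glutamate receptor subunit, was at 36.7, 15.9 and 46.0 cpm in libraries labelled *Cnr1*+/+ and at 22.8, 37.9 and 30.3 cpm in those labelled *Cnr1*-/-. It was highest in replicate 3 labelled *Cnr1*+/+, the library lowest for *Kif5a*. *Dlg4*, the postsynaptic scaffold PSD-95 (25.5 to 35.2 cpm), was lowest in replicate 1 labelled *Cnr1*+/+, whereas *Map2*, a dendritic microtubule protein (8.94 to 21.4 cpm), and *Olfm1*, a secreted glycoprotein (15.2 to 23.5 cpm), were lowest in replicate 3 with that label. The 18 untested ones had means of 0.453 to 8.77 cpm, and 2 of them were lower in libraries labelled *Cnr1*-/- without overlap. *Nefm*, a neurofilament subunit, was at 5.45, 3.69 and 4.52 cpm against 1.95, 2.05 and 3.10 cpm, and *Npy*, a neuropeptide, at 0.649, 0.898 and 0.631 cpm against 0.541, 0 and 0 cpm. The shares of genes lower without overlap were 4.68% at means of 1 to 10 cpm and 3.90% under 1 cpm (of 5637 genes).

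Of 18 other oligodendrocyte genes, 3 were tested. *Trf*, the iron carrier transferrin, was at 297, 354 and 444 cpm in libraries labelled *Cnr1*+/+ and at 326, 372 and 358 cpm in those labelled *Cnr1*-/-, highest in replicate 3 labelled *Cnr1*+/+. Transcription factors of the lineage were low, with *Olig1* at 2.49 to 8.04 cpm, *Olig2* at 0.200 to 1.89 cpm and *Sox10* at 0 to 0.835 cpm in all libraries but replicate 1 labelled *Cnr1*+/+ (10.4 cpm). *Pdgfra*, a receptor of oligodendrocyte precursors, was at 0.908, 0.499 and 0.421 cpm against 0, 0.0933 and 0.119 cpm, lower without overlap as were 3.90% of all genes under 1 cpm.

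The kinesin and calmodulin families were looked at because of the values of their members. *Kif5b*, the widely expressed kinesin heavy chain, was at 108, 118 and 86.3 cpm in libraries labelled *Cnr1*+/+ and at 122, 134 and 130.1 cpm in those labelled *Cnr1*-/- (log2 fold change 0.32, SE 0.135, adjusted p = 0.792 by limma), without overlap. *Kif5c*, expressed in neurons, was at 27.0, 22.7 and 14.1 cpm against 25.9, 38.2 and 24.4 cpm (0.49, SE 0.226, adjusted p = 0.809 by limma). Both had a nominal p under 0.05, as had 5.09% of all genes tested in the higher direction. Of all genes tested, 8.85% were higher without overlap. All 3 kinesin genes were lowest in replicate 3 labelled *Cnr1*+/+. *Calm3* (37.1 to 47.8 cpm) stayed within 1.29-fold, and *Calm2* within 1.40-fold.

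Markers of other cells that the beads could carry over were set beside these values. Of 13 listed endothelial and mural genes, only *Pecam1* was tested (11.4 to 16.1 cpm, 0 called). The list summed to 34.8, 32.0 and 34.5 cpm in libraries labelled *Cnr1*+/+ and to 27.4, 31.1 and 24.3 cpm in those labelled *Cnr1*-/-, without overlap (log2 ratio of the means -0.29), and the sum was not tested. Without overlap, 3 of the 13 genes were lower in libraries labelled *Cnr1*-/-, among them *Flt1*, a VEGF receptor of endothelium, at 6.36, 4.89 and 5.89 cpm against 4.76, 4.10 and 2.86 cpm, and *Slco1a4*, a transporter of brain vessels, at 5.32, 4.29 and 3.05 cpm against 2.17, 2.80 and 1.55 cpm. The other gene was *Pdgfrb*, a growth factor receptor of pericytes, at 0.649, 1.40 and 0.421 cpm against 0, 0.187 and 0.119 cpm, or 0 to 14 reads. Of all genes at these levels, 4.68% (1 to 10 cpm) and 3.90% (under 1 cpm) were lower without overlap. Choroid plexus and ependymal genes summed to 0.238 to 7.46 cpm with none tested, and the defining choroid transcript *Ttr* was at 0.119 cpm in replicate 3 labelled *Cnr1*-/-, the library with the most *Ptgds*. None of the 14 microglia identity genes had a nominal p under 0.05. Of 9 tested neutrophil genes 7 had a nominal p under 0.05 (*S100a8*, *S100a9*, *Lcn2*, *Camp*, *Ltf*, *Retnlg* and *Mmp8*), as had all 4 tested erythrocyte genes (*Hba-a1*, *Hba-a2*, *Hbb-bs* and *Hbb-bt*), all higher and all highest in replicate 2 labelled *Cnr1*-/-. In that library the neuron sum was 749.8 cpm, the highest of the 6, the astrocyte sum 1340.2 cpm and the oligodendrocyte sum 493 cpm, both inside the range of the others. Without it, 1 member was called, *Slc1a3* (difference 0.38). Mitochondrially encoded genes took 2.92% of the scaled total in replicate 3 labelled *Cnr1*+/+ and 3.94% to 4.96% in the other libraries; their part in the low values of that library was not tested.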

How the data were processed

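CD11b+ cell RNA of 3 mice labelled *Cnr1*+/+ and 3 labelled *Cnr1*-/- was analysed, 1 library per mouse. The authors aligned 3′-end reads to mm10 with STAR, divided shared reads by expectation-maximisation in Partek against Ensembl transcripts and applied TMM. The values are CPM, as deposited. Columns were mapped through the sample descriptions, with 0 columns left over. Between 83.4% and 85.5% of values were whole multiples of 1 read (tolerance 0.02 reads), so no count test was used.

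Differences were fitted with limma 3.58.1 in R 4.3.3 (trend, genotype only) on log2 (cpm + 0.1), leaving out genes whose mean was under 10 cpm, with Benjamini-Hochberg adjustment. This follows the thresholds in the methods of the study. P-values rest on 3 animals per label. Single genes were also compared by exact permutation. The code was tested on simulated data. Figures were drawn with matplotlib 3.10.9.

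The 34 members and all lists were chosen with earlier results of these data known. Values per library are given for members with a nominal p under 0.05 or groups without overlap, the 3 most abundant of each class and defining markers, and for the called and the 2 most abundant genes of other lists. Others, and the gene families of *Kif5a* and *Calm2*, were named after their values were seen. Alternatives were other pseudocounts (1 and 0.0001) and filters (none, or a mean of 20), 3 other scalings, no trend, a replicate block and leaving out each library. Some genes that the rule names are not reported here. Coordinates are those of mm10.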

Additional observations from a re-analysis of the deposited data

How the results depend on the processing

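Counts of calls depended on the filter, the scaling and single libraries, whereas 0 members passed the adjusted threshold under any of the 15 alternatives. At a nominal p under 0.05, 401 genes were called as reported, 993 without a filter, 263 with a minimum mean of 20, and 251 to 600 with 1 library left out (251 without the blood-rich replicate 2 labelled *Cnr1*-/-, 600 without replicate 3 labelled *Cnr1*+/+). Of all genes, 6 passed the adjusted threshold as reported, 14 without a filter, 0 after centring, quantile normalisation, rescaling without mitochondrially encoded genes or without trend, and 1 to 24 with 1 library left out (1 without replicate 2 labelled *Cnr1*+/+, 24 without replicate 3 labelled *Cnr1*-/-). Of the members, 2 were called as reported, 1 after centring, 0 after quantile normalisation, after rescaling without mitochondrially encoded genes and without trend, and 1 to 5 with 1 library left out (5, *Kif5a*, *Aldoc*, *Slc1a2*, *Slc1a3* and *Mal*, without replicate 2 labelled *Cnr1*+/+). The cause was not tested. Without a filter *Apod* was called as well. The log2 fold change of *Kif5a* lay between 0.04 and 0.57 over all alternatives and that of *Slc1a3* between 0.21 and 0.38. Class medians with 1 library left out were 0.04 to 0.39 for neuron, -0.02 to 0.38 for astrocyte and -0.25 to 0.09 for oligodendrocyte members. With the replicate number as a block, 421 genes and 2 members were called, again *Kif5a* and *Slc1a3*. Replicates with the same number did not deviate together (correlations of -0.056, -0.032 and -0.031). With deviations taken from means of 3 libraries, this cannot show whether they share more than a number. No correlation of a library with its own number was its highest. Members under 10 cpm rest on 1 to 168 reads per library, which limits what they can show.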

Other observations

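Outside the 34 genes, those whose log2 ratio to *Slc1a2* varied least over the 6 libraries included mitochondrial transcripts. They were looked at after the values were seen, and the values are given as a description. After *Kif5a* and *Clu* came *mt-Td*, a mitochondrial tRNA (SD of the log2 ratio 0.108), and in place 5 *mt-Rnr1*, the small mitochondrial ribosomal RNA (0.140). The level of *mt-Rnr1* was 5917, 6616 and 3379 cpm in libraries labelled *Cnr1*+/+ and 4934, 5800.3 and 6268 cpm in those labelled *Cnr1*-/-. The large mitochondrial ribosomal RNA, *mt-Rnr2*, was at 13347, 17656 and 8972 cpm against 13083, 14646 and 16632 cpm. Both were lowest in replicate 3 labelled *Cnr1*+/+, the library lowest for *Kif5a*, *Slc1a2*, *Clu*, *Aldoc* and *Cpe*. The neuronal noncoding RNA *Bc1*, known to be carried into dendrites, was at 291, 218 and 135 cpm against 241, 269 and 323 cpm (log2 fold change 0.43, SE 0.175, adjusted p = 0.792 by limma), again lowest in that library and with overlapping groups.

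The genes nearest to *Mbp* were *Ntm* (SD 0.146), a neuronal adhesion molecule, *A130010J15Rik* (0.159) and *Plekhb1* (0.165), with *Cpe* in place 7 (0.192).

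*Sox10* and *Apod* were highest in a single library. *Sox10*, a transcription factor of the oligodendrocyte lineage, was at 10.4 cpm (80 reads) in replicate 1 labelled *Cnr1*+/+ and at 0 to 0.835 cpm (0 to 7 reads) in the other libraries. *Apod* was at 19.5 cpm in the same library and at 3.45 to 8.35 cpm elsewhere, whereas *Mog* (1.69 cpm) and *Mbp* (307 cpm) were inside the range of the others. Other oligodendrocyte genes of low level went both ways in that library. Lowest there were *Cldn11* (1.82 cpm), *Ermn* (0.389 cpm), *Ugt8a* (0.908 cpm), *Tspan2* (0.519 cpm) and *Fa2h* (0 cpm, as in replicate 2 labelled *Cnr1*-/-). Highest there were *Cryab* (9.08 cpm), *Gjc3* (8.43 cpm), *Olig1* (8.04 cpm), *Aspa* (2.33 cpm) and *Pdgfra* (0.908 cpm).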
